A study of Homo sapiens with 4 samples.

Results

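The genes described here are 40 genes of glycolysis and of its neighbouring branches together with known targets of hypoxia-inducible factor 1 (HIF1), compared between 320-IWR cells and COLO-320DM cells. They were chosen by gene symbol, and a probe set was counted as a member when the array annotation gave it exactly 1 of these symbols. That rule found 87 probe sets for 37 of the 40 genes, out of 54613 probe sets tested and 19775 genes with a probe set of their own. The lactate transporter genes SLC16A1 and SLC16A3 and the carbonic anhydrase gene CA9 had no such probe set and were not analysed here.

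Glycolysis splits glucose into pyruvate in a preparatory phase that spends ATP and a payoff phase that returns it, and many tumor cells then reduce pyruvate to lactate even where oxygen is present. HIF1 is a dimer of an oxygen-sensitive alpha subunit and ARNT. Prolyl hydroxylases mark the alpha subunit for destruction by the VHL ubiquitin ligase when oxygen is available, and when it is scarce HIF1 binds promoters and enhancers of most glycolytic genes and of genes for angiogenesis, pH control and mitophagy. The Wnt/β-catenin pathway and mTOR signaling have both been linked to this program in colorectal cancer, through PDK1 and the monocarboxylate transporters and through HIF1A translation.

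320-IWR is a subline of the human colorectal cancer line COLO-320DM that was established by prolonged culture with IWR-1, an inhibitor of the poly(ADP-ribose) polymerase tankyrase, and it is resistant to tankyrase inhibitors. COLO-320DM is the parental line, which was not selected with the drug. The comparison is of 1 resistant subline with 1 parental line, with 2 arrays of each, and cells of both were grown in dishes to near confluency before total RNA was taken. The sources used here do not say whether IWR-1 was in the medium at harvest, and they do not say that the 2 arrays of a line came from separate cultures, so the p-values rest on a spread between arrays that could be technical alone.

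Expression was measured on Affymetrix GeneChip arrays, which read each transcript with one or more probe sets. Values are RMA intensities on a linear scale, and differences are log2 fold changes, 320-IWR minus COLO-320DM. Each gene was represented by its brightest probe set, and a level of one gene was never set against that of another. The median intensity of an array was 41.6 and 41.1 in 320-IWR and 41.8 and 41.0 in COLO-320DM, and the log2 values of the 2 arrays of a line correlated with r = 0.99 over probe sets in each line, a description only, since probe sets do not replicate each other. With 4 arrays and no detection calls, the number of arrays limits the precision, and how far a dim probe set lay above background is unknown. Of the colorectal epithelial markers, CDX2, an intestinal transcription factor, had intensities of 2723 and 2790 in 320-IWR and 3403 and 3263 in COLO-320DM. EPCAM and CDH1, which define most epithelial cells, lay below the array median in both lines. KRT8 and KRT18, the simple epithelial keratins, had log2 fold changes of -2.26 and -1.67 and fell in 320-IWR, and KRT20, with 1.78, rose (limma, Benjamini-Hochberg adjusted p = 0.0155, 0.0322 and 0.0412, n = 2 arrays per line). All 3 keratin calls were lost when any 1 of the 4 arrays was left out, with adjusted p-values of 0.0656 to 0.296 by limma. None of 21 measured markers of leukocytes, fibroblasts and endothelium was called, and 0 of the 21 had an unadjusted p under 0.05. These tests compare the lines and do not show whether a marker was present. Some of the 21, such as PTPRC and COL1A1, lay above the array median in both lines, and others, such as CDH5 and LUM, below it.

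No member gene passed the test on all 4 arrays as deposited. In bulk RNA, fewer expressing cells and less RNA per cell cannot be told apart. A probe set was called at an adjusted p under 0.05 over all 54613 probe sets and a difference of at least 2-fold. By that rule limma called 0 of the 87 member probe sets and 0 of the 37 member genes, against 0.370% of all probe sets and 0.592% of all genes. At an unadjusted p under 0.05, without a fold limit, 7 of the 37 genes passed, 3 higher and 4 lower in 320-IWR, which is 18.9% of the measured members against 12.3% of all genes. That count was 2 higher and 2 lower without replicate 2 of 320-IWR, where 8.03% of all genes passed, and 7 higher and 4 lower without replicate 2 of COLO-320DM, where 10.6% of all genes passed. The members are often bright. With only genes of a mean log2 value of at least 6 in either line, 33 members were left. Of these, 2 higher and 3 lower passed at an unadjusted p under 0.05 by limma, no larger a share than the 16.2% of all genes so kept. The median log2 fold change of the 37 members was 0.03, beside 0.02 over all genes, with 20 members above 0 and 17 below. The median size of the difference, sign aside, was 0.19 for the members and 0.13 for all genes. The smallest adjusted p of any member was 0.0787, for ADM. With probe sets averaged per gene, so that fewer features were tested, limma called 1 member, ADM, at an adjusted p of 0.0429, and over all alternatives the adjusted p of ADM ranged from 0.0403 to 0.460.

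**Figure D1:**
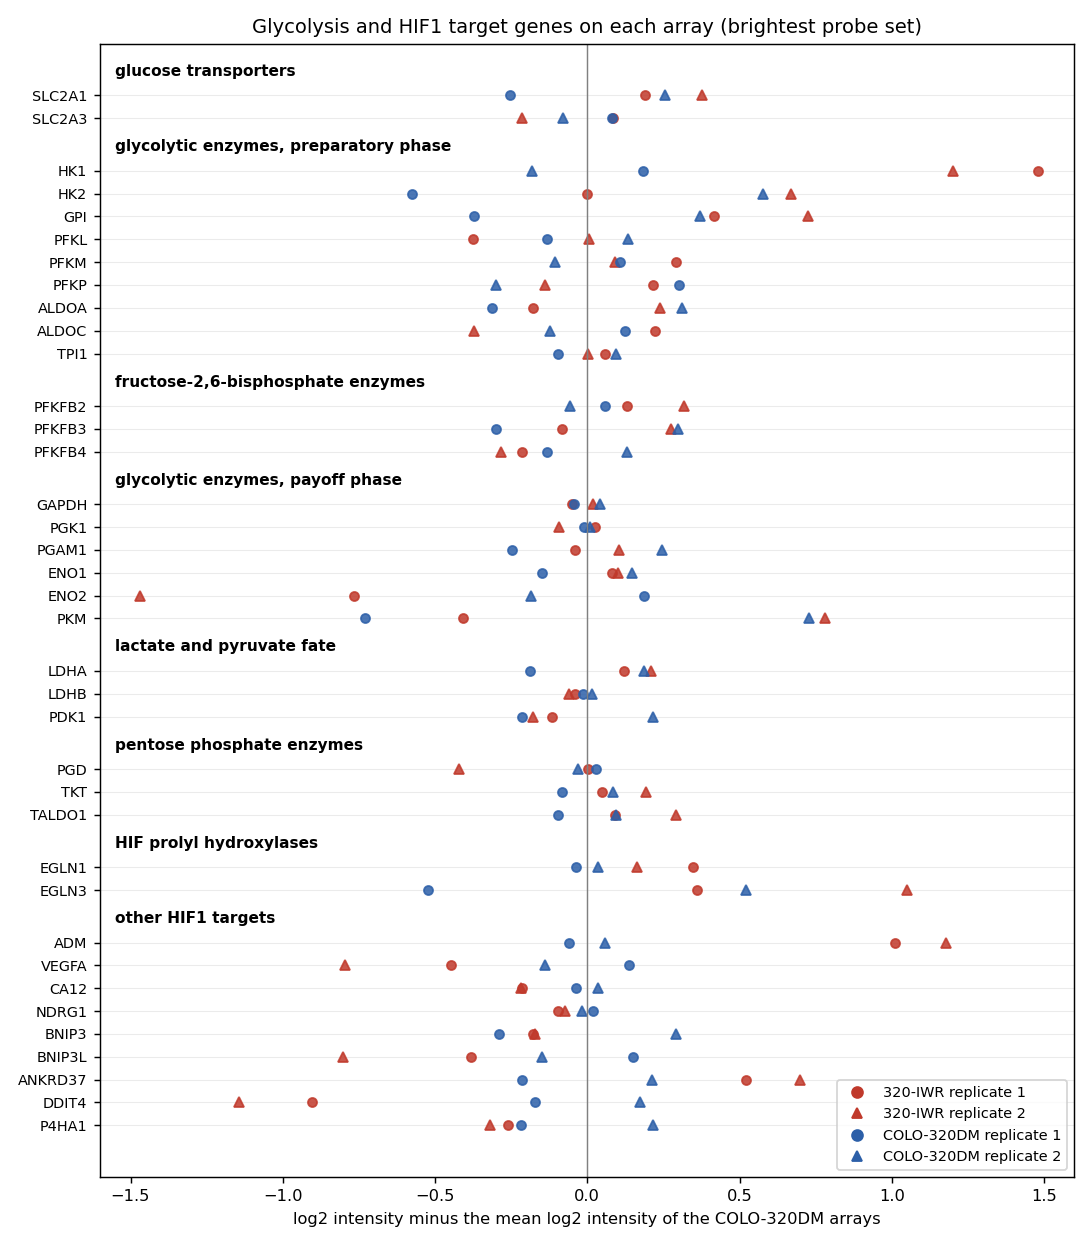
Each row is 1 of the 37 measured member genes, grouped by role, and each point is 1 array, placed by its log2 RMA intensity minus that gene's mean over the COLO-320DM arrays, with 320-IWR in red and COLO-320DM in blue and replicates 1 and 2 as circles and triangles. For most genes the points of both lines interleave near 0, while HK1 and ADM lie to the right in 320-IWR and ENO2 and DDIT4 to the left.

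The arrays of both lines did not overlap for 6 members that were higher in 320-IWR (21.0% of all genes did so in that direction) and for 9 that were lower (17.5% of all genes). With a difference of at least 1.5-fold added, 3 members were higher on both 320-IWR arrays (2.93% of all genes) and 4 were lower (4.37% of all genes). The 3 higher genes were HK1, ADM and ANKRD37, and the 4 lower genes were ENO2, DDIT4, VEGFA and BNIP3L. Of these 7, 5 belong to the HIF1 targets and 2 to the glycolytic enzymes. Just inside the limit of 1.5-fold lay BNIP3L at 1.51-fold lower, and just outside lay GPI at 1.49-fold higher.

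**Figure D2:**
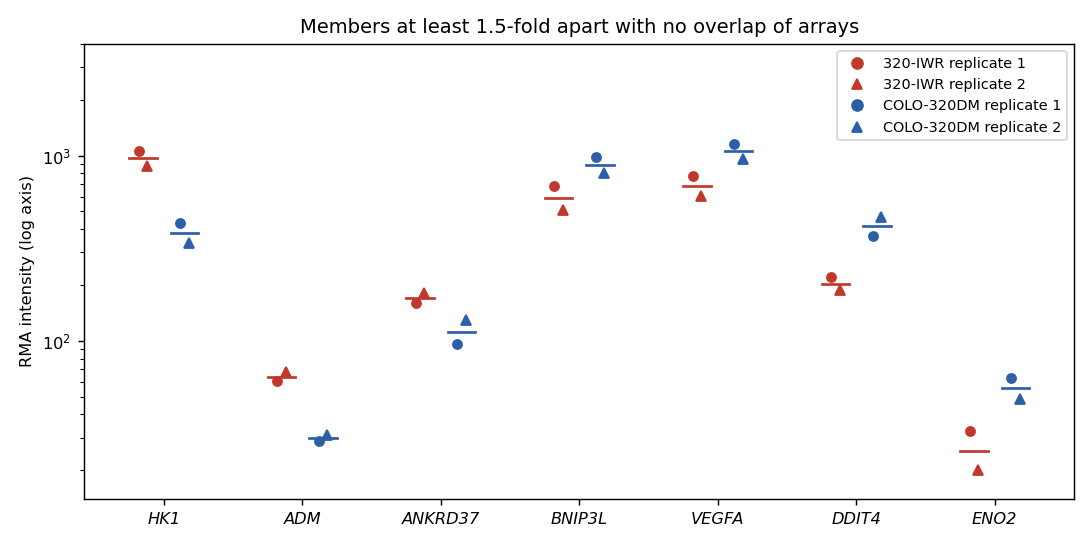
RMA intensity on a log axis for the 7 members with non-overlapping arrays and a difference of at least 1.5-fold, with 1 point per array, 320-IWR left of COLO-320DM, and a bar at each line's mean of log2 values (circles and triangles are replicates 1 and 2). Every 320-IWR point of HK1, ADM and ANKRD37 lies above both COLO-320DM points, and every 320-IWR point of the other 4 genes lies below.

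Glucose enters these cells through facilitative transporters, of which SLC2A1 (GLUT1) is the widespread one and SLC2A3 (GLUT3) has the higher affinity. SLC2A1 had intensities of 172 and 196 in 320-IWR and 127 and 180 in COLO-320DM. The lines overlapped, and the log2 fold change of 0.28 ± 0.21 (SE) had an interval of -0.26 to 0.83 at the 95% level (adjusted p = 0.839). SLC2A3 was dim in both lines, at 18.3 and 14.9 in 320-IWR and 18.2 and 16.3 in COLO-320DM, below the array median, and its brightest probe set is of the type that can also bind related transcripts.

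The preparatory phase opens with hexokinase, which traps glucose as glucose 6-phosphate. HK1, the isoenzyme found in most tissues, had intensities of 1062 and 876 in 320-IWR and 432 and 335 in COLO-320DM. Both 320-IWR arrays were above both COLO-320DM arrays, and the ratio of means was 2.53. The log2 fold change was 1.34 ± 0.19 (SE, n = 2 arrays per line), with a 95% interval of 0.85 to 1.83 and an adjusted p of 0.103 by limma. HK1 has 1 member probe set, so no second probe set bears on it. HK2, the isoenzyme that tumor cells often use and that HIF1 can induce, had intensities of 976 and 1556 in 320-IWR and 656 and 1457 in COLO-320DM. The arrays overlapped and differed more within a line than between the lines, and the log2 fold change was 0.33 ± 0.45 (SE, adjusted p = 0.957).

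GPI, which turns glucose 6-phosphate into fructose 6-phosphate, had intensities of 3686 and 4565 in 320-IWR and 2134 and 3571 in COLO-320DM. The lines did not overlap, and the log2 fold change was 0.57 with an interval of -0.17 to 1.31 (adjusted p = 0.665). Phosphofructokinase 1, the main control point of the pathway, is built of the subunits PFKL, PFKM and PFKP, and their log2 fold changes were -0.18, 0.19 and 0.04 with overlapping arrays. PFKP lay below the array median in both lines. The aldolases ALDOA and ALDOC, which cleave the phosphorylated hexose, had log2 fold changes of 0.03 and -0.07. TPI1, which interconverts the products of aldolase, had intensities of 7988 and 7686 in 320-IWR and 7179 and 8198 in COLO-320DM, with an interval of -0.31 to 0.37. The log2 fold changes of these 6 genes lay between -0.18 and 0.19.

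The bifunctional PFKFB enzymes set the level of fructose 2,6-bisphosphate, the strongest activator of phosphofructokinase 1. PFKFB2 had intensities of 73.6 and 83.7 in 320-IWR and 69.9 and 64.6 in COLO-320DM, a log2 fold change of 0.22. PFKFB4, a hypoxia-inducible isoenzyme, had 145 and 138 in 320-IWR and 153 and 184 in COLO-320DM, a log2 fold change of -0.25. The arrays did not overlap for either gene, in opposite directions, but the differences were under 1.5-fold and the adjusted p-values were 0.754 and 0.742. PFKFB3, the isoenzyme with the highest kinase activity, overlapped between the lines with a log2 fold change of 0.10.

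Most enzymes of the payoff phase differed little between the lines. GAPDH, which makes the first high-energy intermediate, had intensities of 14738 and 15428 in 320-IWR and 14804 and 15697 in COLO-320DM, and the interval of its log2 fold change was -0.33 to 0.29. PGK1, which takes the first ATP of the phase, had 8743 and 8041 in 320-IWR and 8521 and 8642 in COLO-320DM, with an interval of -0.35 to 0.28. PGAM1, a mutase, and ENO1, the widespread enolase, had log2 fold changes of 0.03 and 0.09 with overlapping arrays.

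ENO2, the gamma enolase of neurons and neuroendocrine cells, differed most among the payoff enzymes. It had intensities of 32.5 and 20.0 in 320-IWR and 62.8 and 48.6 in COLO-320DM. Both 320-IWR arrays were below the array median and both COLO-320DM arrays above it. The log2 fold change was -1.12 ± 0.28 (SE), 2.17-fold lower in 320-IWR, with an interval of -1.85 to -0.39 and an adjusted p of 0.282. ENO2 is also a neuroendocrine marker, and the other 7 measured genes of that marker list, CHGA, CHGB, SYP, SCG2, SCG3, NCAM1 and INSM1, had log2 fold changes between -0.03 and 0.32, with 0 of them called and 0 at an unadjusted p under 0.05. Of these, CHGA, SCG2, SCG3 and INSM1 lay below the array median in both lines, so their log2 fold changes say little. The part of neuroendocrine features in the difference of ENO2 was not tested.

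PKM, pyruvate kinase, closes the pathway and yields pyruvate and ATP. Its brightest probe set gave 601 and 1368 in 320-IWR and 480 and 1319 in COLO-320DM. The arrays of each line differed by more than the lines did, and the interval of the log2 fold change of 0.19 ran from -1.42 to 1.80, so that a 2-fold difference either way was not detectable with this probe set. A second, dimmer PKM probe set gave 77.4 and 80.5 in 320-IWR and 91.2 and 75.6 in COLO-320DM, with a log2 fold change of -0.07 and an interval of -0.45 to 0.31.

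Across both phases, 15 enzymes were measured, 10 with a log2 fold change above 0 and 5 below, with a median of 0.03. Apart from HK1 and ENO2, the log2 fold changes of the other 13 lay between -0.18 and 0.57, the arrays overlapped for 12 of them, and the lowest adjusted p was 0.665. For 10 of the 15 enzymes, and for 26 of the 37 members, the 95% interval lay within a 2-fold difference either way. These counts include dim genes such as PFKP and SLC2A3, below the array median in both lines, for which such an interval says little.

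Pyruvate is reduced to lactate by lactate dehydrogenase or kept out of the mitochondrion by PDK1, the kinase that inactivates pyruvate dehydrogenase. LDHA, the muscle-type subunit that favors lactate formation and a HIF1 target, had intensities of 13221 and 14062 in 320-IWR and 10670 and 13844 in COLO-320DM. The arrays overlapped, and the interval of its log2 fold change was -0.27 to 0.61. LDHB, the heart-type subunit, had 12779 and 12598 in 320-IWR and 12997 and 13275 in COLO-320DM, without overlap but with a log2 fold change of only -0.05. PDK1 had 568 and 544 in 320-IWR and 530 and 714 in COLO-320DM, an overlap, with a log2 fold change of -0.15 and an interval of -0.62 to 0.33.

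The pentose phosphate branch takes glucose 6-phosphate to NADPH and ribose 5-phosphate. PGD, which yields NADPH in the oxidative arm, had a log2 fold change of -0.21. TKT and TALDO1, which shuttle carbons back to glycolysis, had log2 fold changes of 0.12 and 0.19. The arrays of both lines overlapped for all 3 genes.

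Among the members, the HIF1 targets outside glycolysis were more spread. With the prolyl hydroxylases, 11 of 12 were measured, and their median difference, sign aside, was 0.59 on the log2 scale, beside 0.16 for the other 26 members and 0.13 for all genes. It was only 0.17 for 38 further hypoxia-induced genes outside the members, so the wider spread is that of these 11 genes. The 11 shared no direction. Of the 9 measured targets that are not hydroxylases, 2 were higher and 7 lower in 320-IWR, and the arrays did not overlap for both of the 2 (21.0% of all genes were higher without overlap) and for 6 of the 7 (17.5% of all genes were lower without overlap).

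EGLN1 (PHD2) and EGLN3 (PHD3) are the hydroxylases that mark HIF alpha subunits, and HIF1 induces both in a feedback loop. EGLN1 had intensities of 1498 and 1318 in 320-IWR and 1148 and 1207 in COLO-320DM. The lines did not overlap, and the log2 fold change was 0.26 with an interval of -0.09 to 0.60 (adjusted p = 0.682). EGLN3 had 102 and 164 in 320-IWR and 55.1 and 114 in COLO-320DM. Its log2 fold change of 0.71 was the largest of the members whose arrays overlapped, and its second probe set gave 0.36.

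ADM encodes adrenomedullin, a vasodilator peptide strongly induced by hypoxia in many cell types. It had intensities of 60.3 and 67.7 in 320-IWR and 28.7 and 31.2 in COLO-320DM. The 320-IWR arrays lay above the array median and the COLO-320DM arrays below it. The log2 fold change was 1.09 ± 0.13 (SE), 2.13-fold higher, with an interval of 0.75 to 1.44 and an adjusted p of 0.0787, short of the threshold. ANKRD37, an ankyrin-repeat protein known as a HIF1 target, had 161 and 182 in 320-IWR and 96.6 and 130 in COLO-320DM. Its log2 fold change was 0.61 ± 0.19 (SE, adjusted p = 0.386), and its other probe set gave 0.22.

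DDIT4 (REDD1) is induced by hypoxia and other stresses and restrains mTORC1 through the TSC complex. It had intensities of 221 and 187 in 320-IWR and 368 and 466 in COLO-320DM. Both 320-IWR arrays were below both COLO-320DM arrays, and the log2 fold change was -1.02 ± 0.18 (SE), 2.03-fold lower, with an interval of -1.49 to -0.56 and an adjusted p of 0.153. Its log2 fold change thus had the opposite sign to those of ADM and ANKRD37, which are known as targets of the same factor.

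The promoters of ADM, ANKRD37 and DDIT4 are shown because the log2 fold changes of these HIF1 targets had opposite signs, while each promoter holds a match to the core of the hypoxia response element. Each window is from RefSeq, build GRCh38.p14, 250 bases before to 50 bases after the annotated start on the plus strand, with ACGTG and GCGTG and their reverse complements CACGT and CACGC in capitals. The ADM window is chr11:10304823-10305122, the ANKRD37 window is chr4:185396591-185396890 and the DDIT4 window is chr10:72273674-72273973.
ADM: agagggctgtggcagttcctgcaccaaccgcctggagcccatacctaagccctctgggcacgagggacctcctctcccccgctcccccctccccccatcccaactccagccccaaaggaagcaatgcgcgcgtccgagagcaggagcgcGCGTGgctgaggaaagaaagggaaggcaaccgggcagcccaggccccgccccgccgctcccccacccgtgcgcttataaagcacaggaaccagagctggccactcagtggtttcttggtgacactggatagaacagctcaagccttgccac
ANKRD37: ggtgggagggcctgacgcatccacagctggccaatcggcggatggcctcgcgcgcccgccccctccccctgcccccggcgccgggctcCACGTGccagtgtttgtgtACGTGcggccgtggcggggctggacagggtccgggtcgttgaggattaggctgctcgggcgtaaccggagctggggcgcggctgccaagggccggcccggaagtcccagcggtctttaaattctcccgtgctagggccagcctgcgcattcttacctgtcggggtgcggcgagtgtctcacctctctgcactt
DDIT4: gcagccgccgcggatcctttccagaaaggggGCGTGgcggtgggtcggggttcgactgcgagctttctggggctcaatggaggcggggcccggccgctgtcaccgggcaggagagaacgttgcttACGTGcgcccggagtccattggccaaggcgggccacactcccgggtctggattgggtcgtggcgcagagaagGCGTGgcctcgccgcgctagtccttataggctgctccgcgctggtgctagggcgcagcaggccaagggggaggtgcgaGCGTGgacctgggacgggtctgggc
ADM had 1 match, ANKRD37 had 3 and DDIT4 had 4, counting overlapping matches on both strands (the palindrome CACGTG holds a match on each strand). The motif ACGTG, on either strand, was matched 3 times in ANKRD37, 1 time in DDIT4 and not in ADM. RefSeq windows were given for 34 of the 40 members, and 66.7% of their 60 windows held at least 1 of the motifs, beside 48.4% of all 35116 windows. For ACGTG alone the shares were 41.7% and 21.4%. A match is a stretch of letters and says nothing of binding in either line.

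VEGFA, the main angiogenic growth factor, had intensities of 771 and 606 in 320-IWR and 1158 and 955 in COLO-320DM. Both 320-IWR arrays were lower, with a log2 fold change of -0.62 ± 0.18 (SE, adjusted p = 0.359). Its other 3 probe sets gave -0.49, -0.26 and -0.05, the widest range among the 25 members with several probe sets, and all 4 were below 0. BNIP3L (NIX), a mitophagy receptor of the outer mitochondrial membrane, had 683 and 510 in 320-IWR and 986 and 801 in COLO-320DM. The log2 fold change was -0.59 ± 0.20 (SE, adjusted p = 0.445), and its other probe set gave -0.33. Its relative BNIP3, the better known HIF1-induced mitophagy receptor, had 2298 and 2310 in 320-IWR and 2126 and 3178 in COLO-320DM, with an overlap and a log2 fold change of -0.17.

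The remaining targets had log2 fold changes between -0.29 and -0.08, and the sign differed among the probe sets of P4HA1 and of CA12. P4HA1, which hydroxylates collagen prolines, had intensities of 742 and 712 in 320-IWR and 765 and 1034 in COLO-320DM, a log2 fold change of -0.29, while a second, very dim probe set gave 0.07. CA12, a membrane carbonic anhydrase that helps export acid, had 69.9 and 69.7 in 320-IWR and 79.1 and 83.1 in COLO-320DM, a log2 fold change of -0.22, and 3 of its 7 probe sets lay above 0, at 0.08, 0.12 and 0.08. NDRG1, a stress-induced protein and a common hypoxia marker, had 78.4 and 79.6 in 320-IWR and 84.8 and 82.7 in COLO-320DM, a log2 fold change of -0.08. The arrays did not overlap on the brightest probe set of any of these 3 genes. Among the 30 members outside the 7 with a difference of at least 1.5-fold and no overlap, the lowest adjusted p was 0.665.

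**Figure D3:**
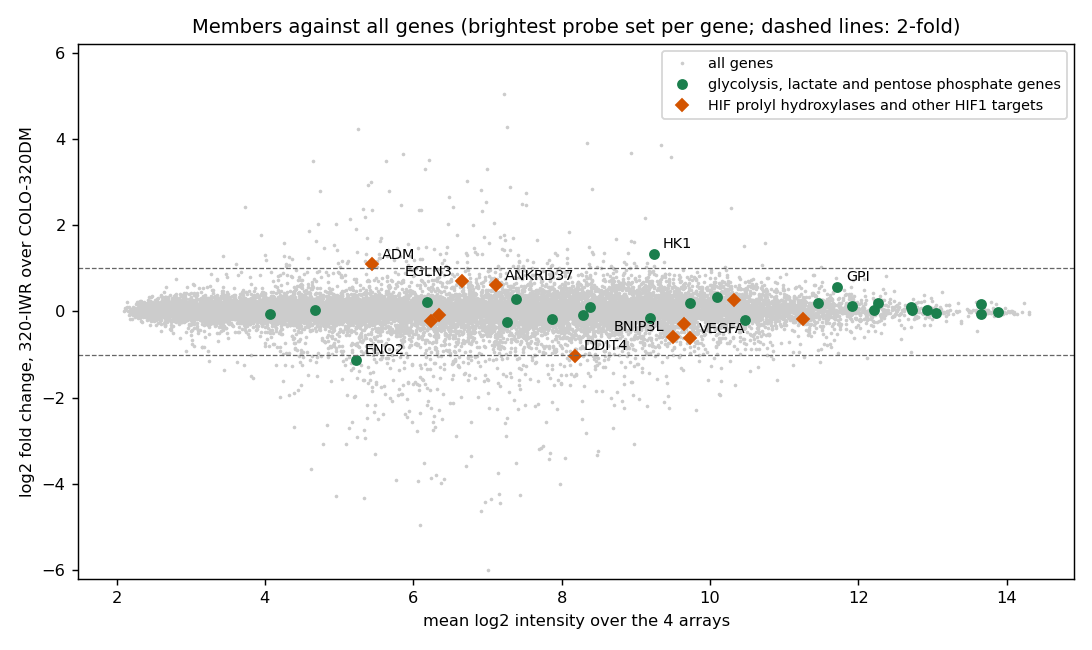
Log2 fold change, 320-IWR minus COLO-320DM, against mean log2 RMA intensity over the 4 arrays for all genes in grey and for the 37 members in color (green circles for glycolysis, lactate and pentose phosphate genes, orange diamonds for HIF1 targets and hydroxylases), with dashed lines at a 2-fold difference. The glycolytic enzymes other than HK1 and ENO2 lie between -0.18 and 0.57, and DDIT4 and ADM lie near -1.02 and 1.09.

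The brightest probe sets of 3 members differed by the replicate number of the labels, in the same direction in both lines. That of PKM was higher on replicate 2 than on replicate 1 by 1.19 on the log2 scale in 320-IWR and by 1.46 in COLO-320DM, but the second PKM probe set had gaps of only 0.06 and -0.27. For HK2 the same gaps were 0.67 and 1.15, and for EGLN3 they were 0.69 and 1.04. Between same-numbered arrays, the brightest probe sets of all 3 were also higher in 320-IWR than in COLO-320DM. In 320-IWR and COLO-320DM, EGLN3 had 102 and 55.1 on replicate 1, and 164 and 114 on replicate 2. HK2 had 976 and 656 on replicate 1, and 1556 and 1457 on replicate 2. PKM had 601 and 480 on replicate 1, and 1368 and 1319 on replicate 2. The other probe sets of HK2 and EGLN3 had gaps above 0 in both lines, of 0.36 to 1.09. These 3 were the members whose replicates differed by at least 1.5-fold the same way in both lines, against 2.91% of all genes, and replicate 2 was the higher one in all 3. Replicate 2 was higher in both lines for 17 of the 37 members, 45.9% beside 32.5% of all genes, and replicate 1 was higher in both lines for 9 of the 37, beside 7799 of all 19775 genes. The fibroblast collagen gene COL3A1 had a gap of the same kind, with intensities of 278 and 1187 in 320-IWR and 292 and 1193 in COLO-320DM. The labels do not say that a replicate number marks a shared day or batch, and what lies behind these gaps was not tested.

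**Figure D4:**
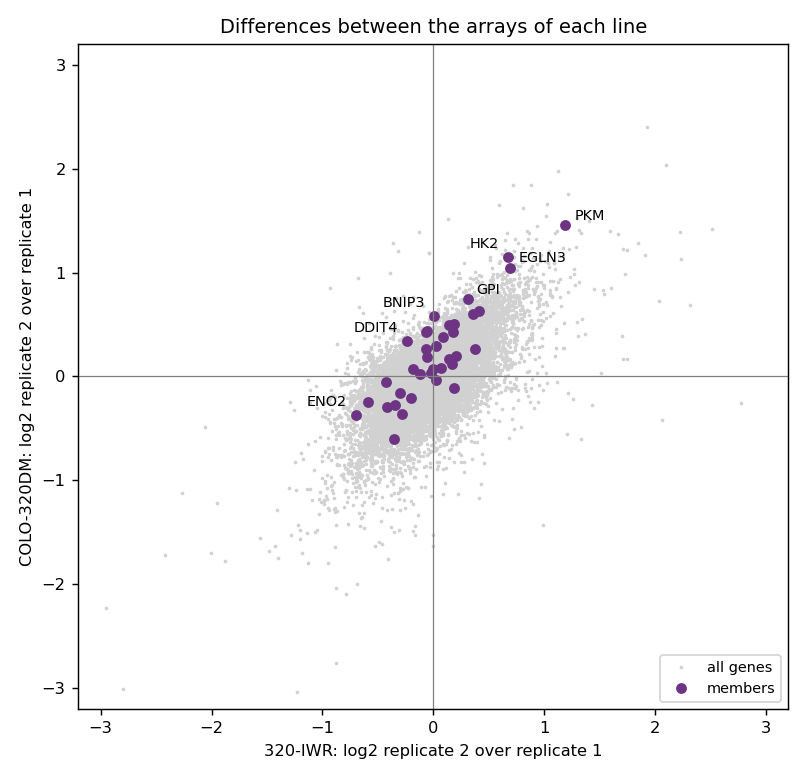
Log2 ratio of replicate 2 to replicate 1 in 320-IWR on the horizontal axis and in COLO-320DM on the vertical axis, with all genes in grey, except 1 gene that lies outside the axes, and the 37 members in color. The brightest probe sets of PKM, HK2 and EGLN3 lie in the upper right, where replicate 2 was higher in both lines.

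The HIF factors and their regulators differed little between the lines. HIF1A, the alpha subunit of HIF1, had intensities of 2517 and 2159 in 320-IWR and 2431 and 2317 in COLO-320DM, a log2 fold change of -0.03 with an interval of -0.38 to 0.33. Over 15 genes of HIF factors and oxygen sensing, the log2 fold changes ran from -0.43, for EPAS1, which encodes HIF2 alpha, to 0.13, for CUL2, a scaffold of the VHL ligase. EPAS1 had intensities of 24.5 and 18.8 in 320-IWR and 32.1 and 25.9 in COLO-320DM, without overlap. EPAS1, ARNT2 and EGLN2 lay below the array median in both lines, so their log2 fold changes say little. None of the 15 was called by limma, and at an unadjusted p under 0.05 the count was also 0. HIF1 alpha is controlled mainly at the protein level, which these arrays do not measure.

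Further genes of the pathway were taken from 7 lists of 165 genes, of which 152 were measured. limma called 0 of the 152, while 16 higher and 13 lower genes had an unadjusted p under 0.05, 19.1% beside 12.3% of all genes. Their median log2 fold change was 0.01. Among 38 further hypoxia-induced genes, 6 higher and 1 lower had an unadjusted p under 0.05, 18.4% beside 12.3% of all genes. Of the 38, 22 had a log2 fold change above 0 and 16 below, with a median of 0.02 and a median size, sign aside, of 0.17. BHLHE41 (DEC2), a transcriptional repressor, had intensities of 25.5 and 38.7 in 320-IWR and 12.5 and 14.8 in COLO-320DM, a log2 fold change of 1.21 (adjusted p = 0.193). All 4 of these values lay below the array median, its other 3 probe sets gave 0.18, 0.18 and 0.62, and the average over probe sets was 0.55. CXCR4, a chemokine receptor, had 92.0 and 39.2 in 320-IWR and 813 and 98.7 in COLO-320DM. Its arrays did not overlap, but the COLO-320DM arrays differed so widely that the log2 fold change of -2.24 had a standard error of 1.07 and an adjusted p of 0.642.

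Of 19 measured genes for other sugar and monocarboxylate transporters and their chaperones, 4 higher and 2 lower had an unadjusted p under 0.05. That is 31.6%, beside 12.3% of all genes. The median size of the difference was 0.18 on the log2 scale, beside 0.13 for all genes. EMB, embigin, a chaperone of monocarboxylate transporters, had intensities of 26.5 and 16.5 in 320-IWR and 173 and 333 in COLO-320DM. The log2 fold change was -3.52 ± 0.39 (SE, adjusted p = 0.0696), the largest of the 152 genes, but its other probe set gave -0.37. BSG, basigin, the usual chaperone of SLC16A1 and SLC16A3, named here after its values were seen, had 772 and 1025 in 320-IWR and 448 and 667 in COLO-320DM, a log2 fold change of 0.70 (adjusted p = 0.479). EMB and BSG, both chaperones of these transporters, thus had log2 fold changes of opposite sign. SLC16A9, a member of the monocarboxylate transporter family, had 147 and 190 in 320-IWR and 67.8 and 67.3 in COLO-320DM, a log2 fold change of 1.30 (adjusted p = 0.0852). SLC2A13, a proton myo-inositol symporter of the glucose transporter family, had 150 and 120 in 320-IWR and 338 and 269 in COLO-320DM, a log2 fold change of -1.17 (adjusted p = 0.132). Its other 4 probe sets gave -1.40, -0.68, -0.30 and -0.08, and the average over probe sets was -0.73.

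PDK4, a kinase that inactivates pyruvate dehydrogenase like PDK1 and is known from fasting, had intensities of 265 and 322 in 320-IWR and 124 and 65.4 in COLO-320DM. Its log2 fold change was 1.70 ± 0.33 (SE, adjusted p = 0.186), and its other probe sets gave 1.29 and 0.52. PDHA1, the catalytic subunit that PDK4 phosphorylates, named here after its values were seen, had 1847 and 1797 in 320-IWR and 3046 and 3117 in COLO-320DM. Its 3 probe sets gave -0.76, -0.67 and -0.84 (adjusted p = 0.120 for the brightest). PDK3, another kinase of the family, also named after its values were seen, had 175 and 151 in 320-IWR and 230 and 279 in COLO-320DM, a log2 fold change of -0.64 (adjusted p = 0.282). Within the family the arrays thus did not overlap for PDK4 and PDK3, in opposite directions, and overlapped for PDK1 and PDK2.

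In the remaining lists, DERA, a deoxyribose-phosphate aldolase beside the pentose phosphate branch, had intensities of 514 and 666 in 320-IWR and 269 and 297 in COLO-320DM, a log2 fold change of 1.05 (adjusted p = 0.138). NDRG4, a relative of NDRG1, had 61.5 and 61.5 in 320-IWR and 163 and 120 in COLO-320DM, a log2 fold change of -1.18 (adjusted p = 0.123). P4HA2, the isoenzyme of P4HA1, named here after its values were seen, had 102 and 116 in 320-IWR and 201 and 228 in COLO-320DM, a log2 fold change of -0.98 (adjusted p = 0.111). None of these genes passed the test.

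**Figure D5:**
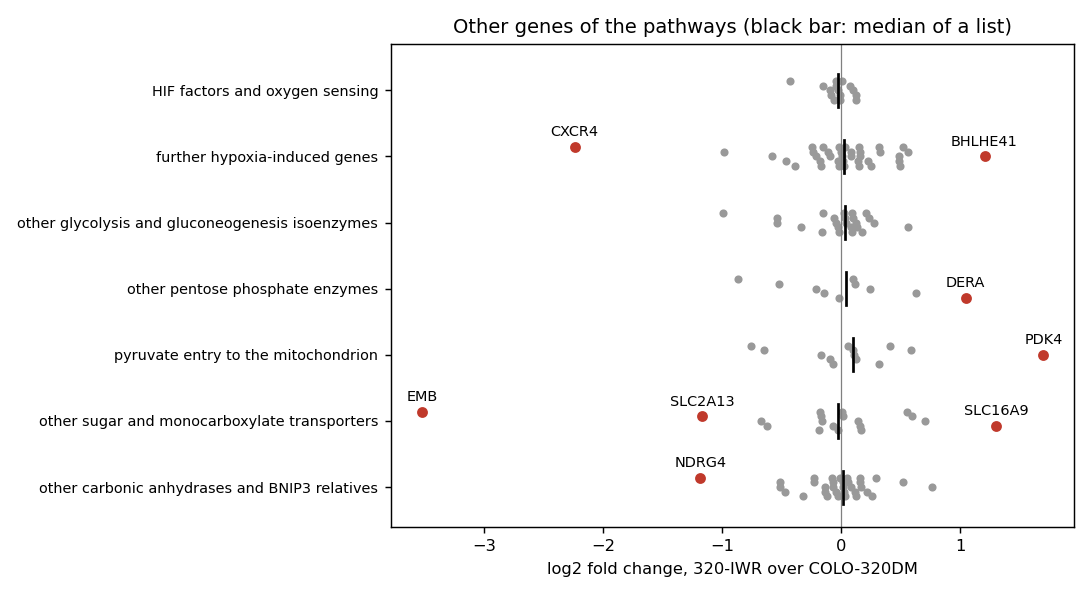
Log2 fold change, 320-IWR minus COLO-320DM, of the 152 measured genes in the 7 wider lists, with 1 point per gene, a black bar at each list's median and the genes given per array by the 2-fold rule in red. The medians of the wider lists lie near 0, and single genes such as EMB at -3.52 and PDK4 at 1.70 stand apart.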

How the data were processed

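Total RNA of 320-IWR and COLO-320DM cells was hybridized to GeneChip Human Genome U133 Plus 2.0 arrays, 2 per line, and each array was assigned to its line by its label. The deposited values are probe set intensities that the authors made with RMA, per the submitters' notes without a version, and normalized with GeneSpring GX. They lie on a linear scale between 3.51 and 22475, so log2 was taken here, and a floor of 1 was set but reached by 0 values. RMA summarizes and quantile-normalizes arrays together, so a shift shared by most genes is removed.

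The tables hold 54675 probe sets. After removal of 62 controls, 54613 were fitted with lmFit and eBayes of limma 3.58.1 in R 4.3.3, with a single term for the cell line, and p-values were adjusted by the Benjamini-Hochberg method over all of them. The fit had 2 residual and 2.79 prior degrees of freedom. The array annotation gave 1 symbol to 41091 probe sets, several to 1801 and none to 11721. No symbol needed an update. Probe sets ending in _x_at or _s_at can bind related transcripts, and 15 members were measured only by such sets. On simulated data for this comparison, with 54613 probe sets, the fit recovered 0 of 67 probe sets with a log2 change of 1, 22 of 67 with a change of 2 and 44 of 66 with a change of 3, with 0 false calls. The smallest log2 difference of any called probe set was 1.23.

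Members and lists were chosen with earlier results of these data known. Values per array were given in full for members that were called, or that differed at least 1.5-fold without overlap of the arrays, and for up to 4 genes of each wider list that were called or differed at least 2-fold without overlap. Other genes given per array were chosen after their values were seen. The alternatives, tried one at a time, were a block for the replicate number, omission of each array, scaling to equal medians, cyclic loess, a pseudocount of 16, a minimum mean log2 value of 6 in either line, a robust trended prior, calls without a fold limit, gene values averaged over probe sets, and removal of _x_at and _s_at probe sets.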

Additional observations from a re-analysis of the deposited data

How the results depend on the processing

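The count of called member genes, 0 of 37, was 2 (HK1 and ADM) with the replicate number as a block and 1 (ADM) with gene values averaged over probe sets, and it was 0 under every other alternative that was run. The count of called member probe sets, 0 of 87, was 2 with the block. In the wider lists the count of 0 was 1 with the block (SLC2A13) and 1 with averaged probe sets (SLC16A9). Over all probe sets 576 were called with the block (1.05%), against 202 without it (0.370%). At an unadjusted p under 0.05 by limma, 5 higher and 4 lower of the 37 members passed with the block, beside 23.7% of all genes. Arrays of the same number deviated together, with a correlation of 0.813 over probe sets. There are only 2 pairs, however, and nothing in the labels says that a number marks a batch. What lies behind the shared deviation was not tested. The adjusted p of ADM ranged from 0.0403 with the block to 0.460 over its alternatives, and that of HK1 from 0.0324 with the block to 0.509. The median log2 fold change of the members, 0.03, lay between -0.065 and 0.12 when each array was left out in turn. It was -0.0016 after cyclic loess, 0.057 with averaged probe sets, and 0.062 after removal of _x_at and _s_at probe sets, where 22 members had a value. The 7 members given in full for a difference of at least 1.5-fold without overlap kept their direction under these alternatives. Leaving out 1 array could not reverse them, because they were chosen for arrays without overlap. The block, the trended prior and the minimum value leave a log2 fold change as it is. The log2 fold changes were 1.16 to 1.52 for HK1, 0.80 to 1.18 for ADM, -1.20 to -0.85 for DDIT4 and -1.47 to -0.77 for ENO2. For ANKRD37 they were 0.40 to 0.82, for VEGFA -0.80 to -0.36 and for BNIP3L -0.80 to -0.38. ANKRD37, VEGFA and BNIP3L thus fell under 1.5-fold in some settings. Of the 37 members, 20 changed direction in at least 1 of 12 settings, the largest of them HK2 at 0.33. BSG, PDHA1, PDK3 and P4HA2 were not followed through the alternatives. Over all probe sets 0 were called without either 320-IWR array, 63 without replicate 1 of COLO-320DM and 58 without its replicate 2. With 2 arrays per line, a 2-fold difference was not recovered in simulated data, so a count of 0 calls says little about differences of that size.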
